A study of Mus musculus with 7 samples.

Results

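The 10 genes *Myh3*, *Myh8*, *Ttn*, *Acta1*, *Actc1*, *Myog*, *Myod1*, *Mylpf*, *Tnnc2* and *Ckm*, which encode sarcomere proteins, myogenic transcription factors and the creatine kinase of muscle, were examined as markers of skeletal muscle in RNA-Seq libraries of fetal mouse testis. They were chosen by symbol, and all 10 were present among the 24739 genes of the FPKM table (a level scaled to the length of the transcript and the depth of the library, so that genes can be compared). The libraries came from whole testes at E14.5 on a C57BL/6 background, with 1 pair of testes from 1 embryo per library, 3 labelled wild-type (WT 1 to WT 3, by replicate number) and 4 *Glis3* mutant (mutant 1 to mutant 4). The mutant embryos were homozygous for *Glis3*zf5, a global null allele in which exon 4 and parts of the flanking introns are deleted. Ribosomal RNA was depleted from total RNA and random primers were used, without selection for poly-A tails or a mark of the strand. The study compared the genotypes to learn how *Glis3* acts in male germ cells, and the muscle genes bear on how far libraries of 1 genotype resembled each other.

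Skeletal muscle fibers form when myoblasts leave the cell cycle, fuse and assemble sarcomeres. The basic helix-loop-helix factors MyoD and myogenin start this program by binding E-boxes, short sequence motifs in the control regions of muscle genes. In the sarcomere, myosin of the thick filament pulls on actin of the thin filament, troponin makes the pull depend on calcium, and titin spans from the Z-disc to the M-line. Fetal fibers use embryonic and perinatal myosin heavy chains and, beside skeletal actin, cardiac actin. The fetal testis holds Sertoli cells, germ cells, Leydig cells, peritubular myoid cells of a smooth muscle type and vessels, and is not known to hold skeletal muscle fibers.

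*Glis3* itself had 7.63 FPKM in WT 1, 6.89 in WT 2, 2.91 in WT 3, 3.86 in mutant 1, 3.26 in mutant 2, 2.9 in mutant 3 and 2.66 in mutant 4. Its value in the library labelled WT 3 fell among those of the mutants, and the members' fold changes and the counts of calls are therefore also given with that library left out. FPKM sums over all genes ranged from 694243 to 1018678 per library, and between 18644 and 19081 genes had a value above 0. The number of fragments behind an FPKM value is not known, but the steps between low values gave depths of 0.775 to 0.933 relative to WT 1. Testis markers were high in all 7 libraries: *Amh* and *Ptgds* of Sertoli cells had 99.8 to 200 and 74.3 to 122 FPKM, *Cyp17a1* and *Cyp11a1* of fetal Leydig cells 679 to 1362 and 434 to 823 FPKM, and *Dppa3* and *Dazl* of germ cells 223 to 663 and 98.6 to 271 FPKM.

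The 10 muscle genes differed more between libraries of the same genotype than between the genotypes. Their summed FPKM was 57.5 in WT 1, 6.14 in WT 2, 6.66 in WT 3, 31 in mutant 1, 27.2 in mutant 2, 6.75 in mutant 3 and 84 in mutant 4. The highest sum was thus 13.7 times the lowest, with WT 1 at 9.37 times WT 2 and mutant 4 at 12.4 times mutant 3. These sums made up between 0.000642% and 0.00844% of all FPKM in a library. WT 2, WT 3 and mutant 3 had the 3 lowest values in 8 of the 10 genes, and WT 1 and mutant 4 had the 2 highest in 7 of the 10. The plot of all members by library shows this order, in which both genotypes have libraries at the top and at the bottom.

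**Figure D1:**
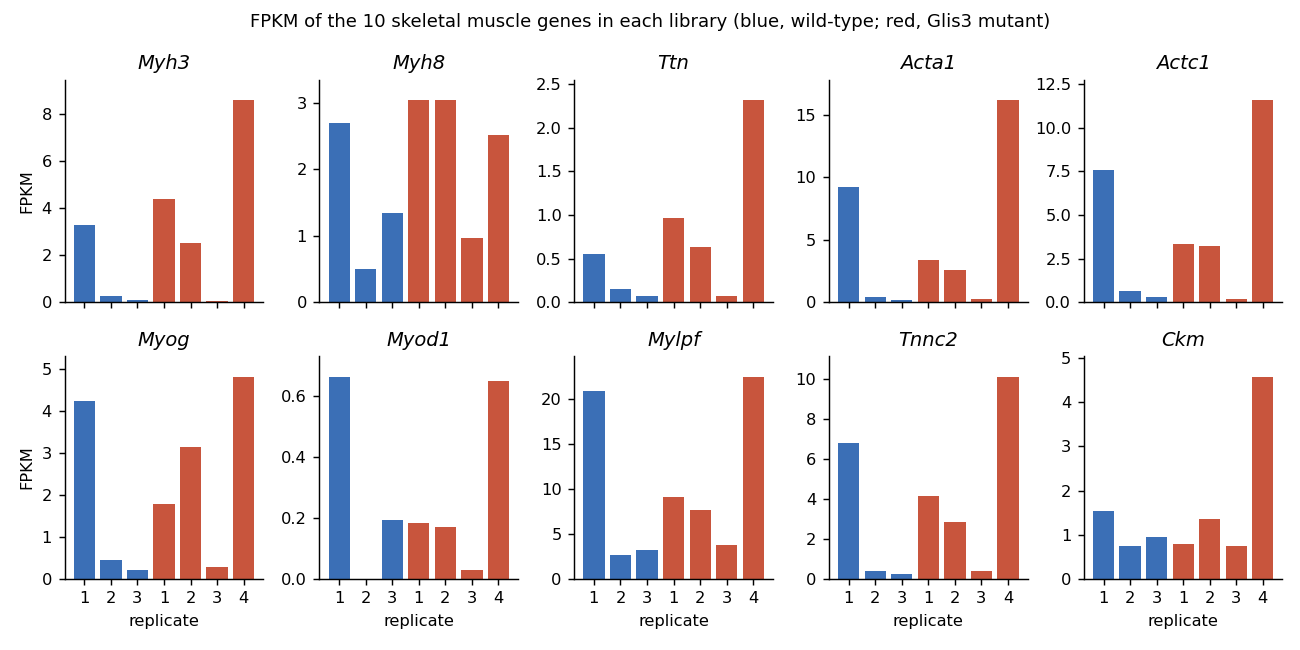
FPKM of the 10 muscle genes (one panel each, linear vertical axis from 0) in the 3 WT libraries (blue bars) and the 4 *Glis3* mutant libraries (red bars), by replicate number. WT 1 and mutant 4 are high in most panels, with summed FPKM of 57.5 and 84, and WT 2 and WT 3 and mutant 3 are low, with sums of 6.14, 6.66 and 6.75.

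*Myog* (mm10, chromosome 1, 134290004 to 134292548) encodes myogenin, the factor that drives terminal differentiation of myoblasts. It had 4.25 FPKM in WT 1, 0.456 in WT 2, 0.198 in WT 3, 1.78 in mutant 1, 3.14 in mutant 2, 0.274 in mutant 3 and 4.82 in mutant 4. The lowest value was in a wild-type library, the highest in a mutant library, and the groups overlapped. With means of 1.63 ± 2.27 FPKM (SD, n = 3) and 2.51 ± 1.94 FPKM (SD, n = 4), its log2 fold change was 0.72 (mutant minus wild-type on the log2(FPKM + 0.5) scale, which understates the change of low genes; SE 0.78, limma adjusted p = 0.673). *Myod1* (chromosome 7, 46376474 to 46379092), which encodes the myoblast determination factor MyoD, was the lowest member, with 0.663 FPKM in WT 1, 0 in WT 2, 0.194 in WT 3, 0.182 in mutant 1, 0.169 in mutant 2, 0.0299 in mutant 3 and 0.649 in mutant 4. Its mean of 0.27 FPKM over the 7 libraries was under the filter of 0.5 FPKM, so that it was not tested with limma, and the group means of 0.286 ± 0.341 (SD, n = 3) and 0.258 ± 0.27 FPKM (SD, n = 4) differed by less than the spread between libraries (exact permutation test, two-sided, p = 0.857). Over the 7 libraries the 2 factors were highest in WT 1 and mutant 4, where most sarcomere genes were highest too.

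The bases before the annotated starts of the members are shown because E-boxes are the sites through which myogenin and MyoD act, and because the members moved together. RefSeq sequences, with starts as annotated there (GRCm38.p6, the mm10 assembly), were matched for 9 of the 10 genes, all but *Myod1*. The 250 bases upstream of the start are printed for a gene of each role, 5′ to 3′ on the strand of the gene: *Myog* (chr1:134289754-134290003, plus strand), the light chain gene *Mylpf* (chr7:127211358-127211607, plus strand), the actin gene *Acta1* (chr8:123894776-123895025, minus strand) and the titin gene *Ttn* (chr2:76982548-76982797, minus strand). Capitals mark E-boxes (CANNTG), the CArG box of serum response factor, the MEF2 box and the TATA box (TATAAA).
Myog: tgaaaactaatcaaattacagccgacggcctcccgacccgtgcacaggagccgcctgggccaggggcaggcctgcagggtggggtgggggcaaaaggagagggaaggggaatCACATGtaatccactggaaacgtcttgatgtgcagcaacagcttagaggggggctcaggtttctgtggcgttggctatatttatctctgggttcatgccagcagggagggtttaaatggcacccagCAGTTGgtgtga
Mylpf: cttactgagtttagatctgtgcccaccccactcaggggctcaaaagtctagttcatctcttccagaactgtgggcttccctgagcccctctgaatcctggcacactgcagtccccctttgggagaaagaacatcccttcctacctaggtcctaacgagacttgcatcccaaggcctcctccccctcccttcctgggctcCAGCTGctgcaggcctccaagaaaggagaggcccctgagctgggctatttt
Acta1: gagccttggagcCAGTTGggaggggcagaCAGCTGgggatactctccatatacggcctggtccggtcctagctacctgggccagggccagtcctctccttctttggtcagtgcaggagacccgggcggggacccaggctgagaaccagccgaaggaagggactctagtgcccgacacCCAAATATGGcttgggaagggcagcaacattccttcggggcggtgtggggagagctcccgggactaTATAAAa
Ttn: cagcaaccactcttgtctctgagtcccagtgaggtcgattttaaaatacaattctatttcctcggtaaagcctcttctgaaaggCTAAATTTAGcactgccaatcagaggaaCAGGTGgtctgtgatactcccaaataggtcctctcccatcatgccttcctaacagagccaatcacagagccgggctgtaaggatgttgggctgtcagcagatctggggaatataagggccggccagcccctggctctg

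An E-box was found in 8 of the 9 members, all but *Actc1*, where 66.2% of 32851 RefSeq windows of the same length hold one. The form CAGCTG, which is one of the sequences that CANNTG covers, was found in *Acta1*, *Mylpf* and *Ckm* (3 of 9, against 13% of all windows). The CArG box was found in *Acta1* and *Actc1* (2 of 9, against 1.47%), the MEF2 box in *Ttn* (1 of 9, against 0.508%) and TATAAA on the strand of the gene in *Acta1* and *Myh3* (2 of 9, against 7.59%). The first 4 motifs read the same on both strands. These are matches of the stated letters in a short window, and no binding was measured. Sites that depart from these letters were not searched, so that a gene without a match can still hold a site of the factor.

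*Myh3* (chromosome 11, 67078300 to 67102291) encodes the embryonic myosin heavy chain, the motor of the thick filament in the first fibers. It had 3.28 FPKM in WT 1, 0.273 in WT 2, 0.0751 in WT 3, 4.38 in mutant 1, 2.5 in mutant 2, 0.0265 in mutant 3 and 8.58 in mutant 4. Its highest value was 323 times its lowest, the widest ratio among the 9 members with a value above 0 in every library, and both ends of that range were mutant libraries. Its log2 fold change of 1.28 was the largest of the members and had a 95% interval from -0.94 to 3.51 (SE 0.97, limma adjusted p = 0.531).

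*Myh8* (chromosome 11, 67277124 to 67308633), the perinatal heavy chain, varied less than *Myh3*. Its values were 2.7 FPKM in WT 1, 0.49 in WT 2, 1.34 in WT 3, 3.04 in mutant 1, 3.04 in mutant 2, 0.965 in mutant 3 and 2.51 in mutant 4, and the highest was 6.21 times the lowest. The log2 fold change was 0.60 (SE 0.43, limma adjusted p = 0.506). Of the windows of 1 read length along the *Myh8* transcript, 3.42% were identical to the adult myosin genes *Myh1*, *Myh2*, *Myh4* or *Myh13*, so that a small part of its reads could belong to these neighbors, while for *Myh3* this share was 0.728%.

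*Mylpf* (chromosome 7, 127211608 to 127214287), the regulatory light chain of fast fibers, was the most abundant member in each of the 7 libraries and made up 26.8% to 56.4% of the members' summed FPKM. It had 20.9 FPKM in WT 1, 2.6 in WT 2, 3.18 in WT 3, 9.11 in mutant 1, 7.71 in mutant 2, 3.81 in mutant 3 and 22.5 in mutant 4. WT 1 and mutant 4 stood above the other libraries of their groups, and no library was under 2.6 FPKM. The log2 fold change was 0.59 (SE 0.73, limma adjusted p = 0.715).

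The actin genes *Acta1* (skeletal actin; chromosome 8, 123891758 to 123894775) and *Actc1* (cardiac actin, also used by fetal skeletal fibers; chromosome 2, 114047289 to 114052811) followed each other. *Acta1* had 9.24 FPKM in WT 1, 0.424 in WT 2, 0.151 in WT 3, 3.34 in mutant 1, 2.61 in mutant 2, 0.258 in mutant 3 and 16.2 in mutant 4. *Actc1* had 7.59 FPKM in WT 1, 0.62 in WT 2, 0.29 in WT 3, 3.33 in mutant 1, 3.21 in mutant 2, 0.185 in mutant 3 and 11.6 in mutant 4. The highest library stood 108 times above the lowest in *Acta1* and 62.7 times in *Actc1*, against log2 fold changes between the groups of 0.96 (SE 1.15, limma adjusted p = 0.705) and 0.77 (SE 1.03, adjusted p = 0.735). No window of 1 read length was shared between the transcripts of these near-identical proteins.

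*Tnnc2* (chromosome 2, 164777162 to 164779734) encodes the calcium sensor of fast troponin and had the same high and low libraries. It had 6.8 FPKM in WT 1, 0.389 in WT 2, 0.218 in WT 3, 4.12 in mutant 1, 2.83 in mutant 2, 0.391 in mutant 3 and 10.1 in mutant 4 (log2 fold change 1.06, SE 0.97, limma adjusted p = 0.605). Its exons overlap *Ube2c* on the opposite strand, with 10.6% of read-length windows in common, and the libraries do not tell the strands apart. *Ttn* (chromosome 2, 76703984 to 76982547), which encodes titin, had 0.555 FPKM in WT 1, 0.149 in WT 2, 0.0672 in WT 3, 0.969 in mutant 1, 0.627 in mutant 2, 0.075 in mutant 3 and 2.32 in mutant 4. Mutants 1, 2 and 4 were above all wild-type libraries, but mutant 3 lay between WT 3 and WT 2, and the log2 fold change of 0.81 (SE 0.48, limma adjusted p = 0.418) had the smallest p-value of the members. An antisense gene, *Gm13938*, overlaps its exons.

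*Ckm* (chromosome 7, 19411094 to 19421583), the creatine kinase that buffers ATP in muscle, had 1.53 FPKM in WT 1, 0.743 in WT 2, 0.943 in WT 3, 0.792 in mutant 1, 1.35 in mutant 2, 0.742 in mutant 3 and 4.58 in mutant 4. All libraries but mutant 4 lay within 0.742 to 1.53 FPKM. The log2 fold change was 0.36 (SE 0.46, limma adjusted p = 0.725), and mutant 4 decided its direction, with -0.10 when that library was left out (adjusted p = 0.886, within 0.588 to 0.896 over all alternatives). The antisense gene *A930016O22Rik* shares 3.55% of the read-length windows of *Ckm*.

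No member differed between the genotypes beyond the spread of the libraries. Of the 9 members that passed the filter, limma called 0 at an adjusted p under 0.05, where 1 of 13988 genes tested was called (0.00715%). With so few calls in all, the 0 called says little about the members. The study, which used Cuffdiff, reported many more differentially expressed genes. Of the 9, 0 had an unadjusted p under 0.05, against 17% of all genes tested. No member had groups that did not overlap, against 7.31% of genes with all mutant libraries higher and 7.59% with all lower. The two-sided exact permutation test of each member gave p from 0.229 to 0.857, and with 3 against 4 libraries it cannot go below 0.0286. By sign, 9 of the 10 were higher in the mutant libraries, and the median log2 fold change of the 9 tested was 0.77, against 0.01 over all genes tested. Without the library labelled WT 3 the log2 fold changes were smaller for 8 of the 9, with 0.76 for *Myh3*, 0.63 for *Ttn*, 0.23 for *Acta1*, 0.13 for *Actc1*, 0.18 for *Myog*, 0.21 for *Mylpf*, 0.45 for *Tnnc2* and 0.31 for *Ckm*, whereas *Myh8* had 0.62. Limma called 0 members there as well, where it called 720 of all 13988 genes tested. The members move together across libraries, so that their signs are not separate observations.

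**Figure D2:**
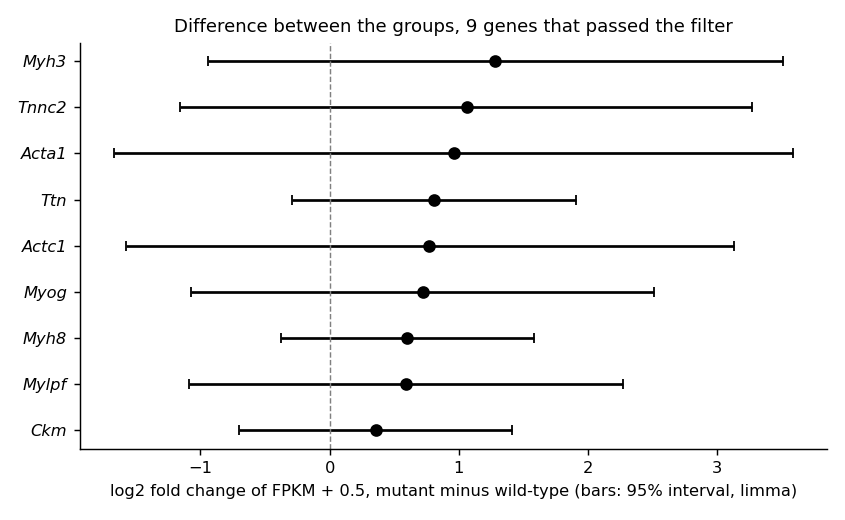
Log2 fold change of FPKM + 0.5 (mutant minus wild-type, horizontal axis) of the 9 muscle genes that passed the filter, over all 7 libraries, as points with 95% intervals from limma. All points lie above 0, from 0.36 for *Ckm* to 1.28 for *Myh3*, and every interval includes 0.

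The spread within groups set the members apart from most genes. The SD of log2(FPKM + 0.5) within groups was 1.95 for *Acta1*, 1.75 for *Actc1*, 1.65 for *Myh3*, 1.64 for *Tnnc2*, 1.32 for *Myog* and 1.24 for *Mylpf*, and 0.71 to 0.79 for *Myh8*, *Ckm* and *Ttn*. The median of the 9 was 1.32, compared with 0.13 over all genes tested and 0.17 over the 6748 genes with a mean of 0.5 to 10 FPKM. An SD above 1 was found for 6 members and for 115 of all genes tested (0.822%). Each of the 9 had a larger SD than at least 98.3% of the genes tested. As the members were proposed with results of these data known, these ranks are a description.

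**Figure D3:**
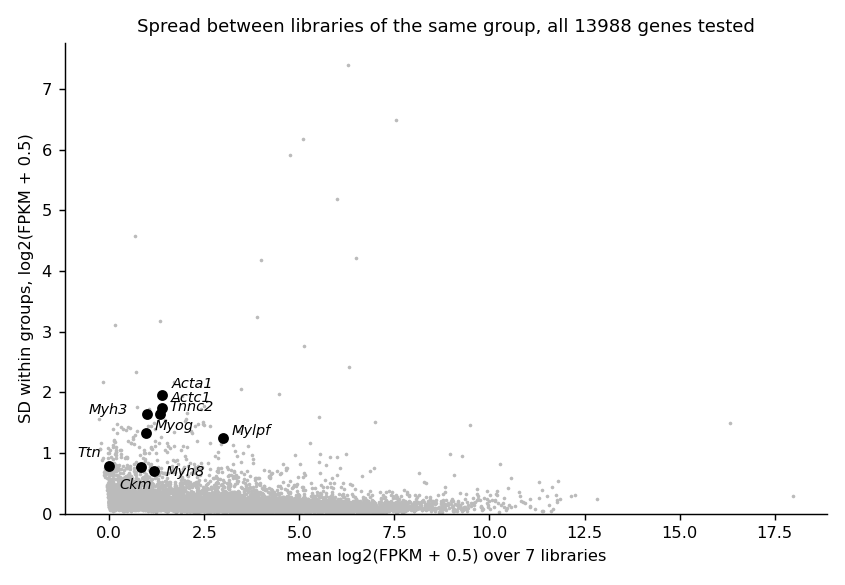
SD within groups of log2(FPKM + 0.5) (vertical axis) against mean log2(FPKM + 0.5) over the 7 libraries (horizontal axis) for all 13988 genes tested (grey points), with the 9 tested muscle genes in black. The muscle genes lie at 0.71 to 1.95, above the bulk of the grey points, whose median is 0.13.

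A single level per library described most of this variation. The mean log2(FPKM + 0.5) of the 10 members was 2.07 in WT 1, -0.03 in WT 2, -0.08 in WT 3, 1.50 in mutant 1, 1.41 in mutant 2, -0.12 in mutant 3 and 2.68 in mutant 4. The group means were 0.66 ± 1.23 (SD, n = 3) and 1.37 ± 1.15 (SD, n = 4), a difference of 0.71 that was smaller than the SD within either group, while the libraries of the mutant group spanned 2.80 and those labelled wild-type 2.16. The difference depended on single libraries, with 0.27 without mutant 4, 0.34 without the library labelled WT 3, 0.37 without WT 2, 1.21 without mutant 3 and 1.42 without WT 1. After each gene was centred on its own mean, 79.4% of the squared variation of the members lay in the library means. Over the 7 libraries, the Pearson r of the 45 pairs of members ranged from 0.47 to 0.99 with a median of 0.85. The r of each member with the mean of the other 9 was 0.99 for *Acta1*, *Actc1* and *Tnnc2*, 0.96 to 0.97 for *Myh3*, *Myog* and *Mylpf*, 0.91 for *Ttn*, 0.85 for *Myod1*, 0.79 for *Myh8* and 0.77 for *Ckm*; these points share a library and its depth.

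In the libraries with low sums, the makeup of the members was different. *Myh3* made up 5.71%, 14.1%, 9.19% and 10.2% of the members' summed FPKM in WT 1 and mutants 1, 2 and 4, but 4.45%, 1.13% and 0.393% in WT 2 and WT 3 and mutant 3. *Ckm*, by contrast, made up 12.1%, 14.1% and 11% in those last 3 libraries and 2.55% to 5.46% in the other 4. At these low levels, 9, 8 and 9 of the 10 members were under 1 FPKM in WT 2, the library labelled WT 3 and mutant 3, respectively. In whole testes, fewer cells of a type and less RNA per cell cannot be told apart, and the cells that the transcripts came from were not identified.

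Genes outside of the members with the most similar pattern over the 7 libraries were *Myl4*, *Tceal7*, *Klhl41*, *Rab10os*, *Itga7*, *Jph2*, *Tbx3*, *Mybpc1*, *Sln* and *Slc16a6*, with r from 0.99 to 0.95 to the mean of the members. *Myl4*, the embryonic and atrial myosin light chain, had 8.51 FPKM in WT 1, 2.92 in WT 2, 3.16 in WT 3, 5.61 in mutant 1, 5.08 in mutant 2, 2.65 in mutant 3 and 10.9 in mutant 4. *Klhl41*, a kelch protein of skeletal muscle, had 0.932 FPKM in WT 1, 0.212 in WT 2, 0.263 in WT 3, 0.69 in mutant 1, 0.486 in mutant 2, 0.132 in mutant 3 and 1.55 in mutant 4. *Sln*, the sarcolipin gene, whose product inhibits the calcium pump, had 0.81 FPKM in WT 1, 0.23 in WT 2, 0.11 in WT 3, 0.834 in mutant 1, 0.913 in mutant 2, 0 in mutant 3 and 2.5 in mutant 4. In each of the 3, WT 1 and mutants 1, 2 and 4 were above WT 2, WT 3 and mutant 3. *Mybpc1*, a myosin-binding protein of slow fibers, ranged from 0.648 to 2.5 FPKM, and *Tceal7* from 0.186 to 5.32 FPKM. *Rab10os*, *Jph2*, *Tbx3* and *Slc16a6* had the same 3 libraries lowest, with ratios of 1.36 to 1.66 between the highest and the lowest library.

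Lists of 90 other skeletal muscle genes by role, of which 88 were in the table, were read from the same fit. Of the 51 that passed the filter, limma called 0, and 7 had an unadjusted p under 0.05, against 17% of all genes tested. Their median log2 fold change was 0.21, with 41 above 0 and 10 below. An r above 0.8 to the mean of the members was found for 18 of the 51 (35.3%), against 134 of all 13988 genes tested (0.958%). Without the library labelled WT 3, 3 of the 51 were past the threshold, where 720 of all 13988 genes tested were. Among the 3 were *Smpx* and the homeobox gene *Six4*, which also acts outside muscle. Their log2 fold changes were 0.38 (limma adjusted p = 0.035) and -0.88 (limma adjusted p = 0.0346).

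The thick filament list followed the members most often, with r above 0.8 in 4 of the 6 genes tested: *Myl4*, *Mybpc1*, *Myl1* and, named after its values were seen, *Myom3*. *Myl1*, the fast essential light chain, had 1.74 FPKM in WT 1, 0.379 in WT 2, 0.463 in WT 3, 0.601 in mutant 1, 1.13 in mutant 2, 0.0554 in mutant 3 and 5.35 in mutant 4. In the thin filament list, 4 of 9 had r above 0.8, which were the troponin genes *Tnnc1*, *Tnni2*, *Tnnt2* and *Tnnt3*, named after their values were seen, with r of 0.91 to 0.94. The 3 most abundant thin filament genes did not share the pattern. *Tpm1*, the tropomyosin gene that many cell types use, had 446 to 567 FPKM, *Tnni1*, slow troponin I, had 27.5 to 54.4 FPKM, and *Tnnt1*, slow troponin T, had 23.2 to 42 FPKM, with r of 0.08, 0.07 and 0.52. Genes named for muscle could thus be abundant in all 7 libraries without following the members.

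In the list of Z-disc and scaffold genes, 3 of 9 had r above 0.8, among them *Des* (desmin), with r of 0.95 and 5.91 to 9.33 FPKM. *Smpx*, a small protein of striated muscle, had r of 0.39 and was higher in all mutant libraries (24.1 to 27 FPKM) than in those labelled wild-type (18.5 to 20.2 FPKM; limma adjusted p = 0.133). *Actn2*, the sarcomeric actinin gene, had 3.69 to 7.5 FPKM with r of 0.55. In the list of calcium release and excitation, 3 of 7 had r above 0.8, but the most abundant gene, *Casq2*, the calcium store protein of slow and cardiac muscle, had 35.8 to 62.5 FPKM with r of 0.34, and *Srl* (sarcalumenin) had 7.7 to 9.37 FPKM with r of 0.42. *Jph2*, which joins the membranes of the calcium release unit, was among the 10 most similar genes.

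Of the 5 myogenic regulators and precursor genes tested, 1 had r above 0.8: *Msc* (musculin), with 6.7 to 10.1 FPKM and r of 0.89. *Mef2c*, a partner of the myogenic factors that other cells also use, had 11.1 to 13.7 FPKM and r of 0.50, and *Six4* had 4.28 to 8.44 FPKM in the WT and 3.05 to 3.84 FPKM in the mutant libraries and did not pass the threshold (log2 fold change -0.68, limma adjusted p = 0.186). Of the 3 myoblast fusion genes tested, *Gm7325*, listed for the fusion peptide myomixer, had r of 0.93 with 0.133 to 1.33 FPKM, whereas the adhesion genes *Jam2* and *Jam3*, which endothelium and other cells express, had r of 0.16 and 0.20. Of the 9 genes of muscle metabolism and chaperones tested, 2 had r above 0.8, while the most abundant, *Eno3*, *Pygm* and *Pgam2*, which encode muscle forms of glycolytic and glycogen enzymes, had r of 0.35, 0.40 and 0.49. None of the 3 neuromuscular junction genes tested had r above 0.8, with *Dok7* at -0.44, *Rapsn* at 0.58 and *Chrnb1* at 0.72.

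Markers of 14 other cell types were read beside the members. Of their 63 genes tested, limma called 0, and 0 had an r above 0.8 to the members. In the cardiac list, 3 genes were tested. *Actc1* (cardiac actin) and *Myl4* (embryonic and atrial light chain), with r of 0.99 each, were listed with skeletal muscle instead. The absence of an r above 0.8 therefore does not cover genes that heart and skeletal muscle share. An unadjusted p under 0.05 was found for 15 of the 63, where 17% of all genes tested had one. Of these 15, 4 were among the 5 fetal Leydig cell genes (median log2 fold change 0.47) and 4 among the 5 germ cell genes (median -0.76). The mean log2 levels of the lists had r to the members from -0.31 (Sertoli cell) to 0.71 (cardiac muscle), with 0.68 for epidermis, 0.67 for neurons, 0.59 for tendon and fascia, 0.37 for smooth and peritubular muscle, 0.21 for liver and for fat, 0.19 for glia, 0.12 for fetal Leydig cell, -0.02 for germ cell, -0.09 for cartilage, -0.11 for mesonephros and kidney and -0.16 for blood. No marker of any list was at 0 in all 7 libraries, although *Nkx2-5* of heart and *Umod* of kidney were at 0 in 6 libraries each and *Pax2* in 5.

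Liver genes also differed between libraries of the same genotype, but in other libraries than the muscle genes. The summed FPKM of the 6 liver genes was 20.7 in WT 1, 80.1 in WT 2, 5.55 in WT 3, 127 in mutant 1, 11.5 in mutant 2, 6.02 in mutant 3 and 21.7 in mutant 4. *Afp* (alpha-fetoprotein) ranged from 2.08 to 73.6 FPKM and *Alb* (albumin) from 0.862 to 28 FPKM, each highest in mutant 1 and WT 2. WT 2, with 80.1 FPKM of liver genes, was lowest in summed muscle genes, while mutant 4, highest in muscle genes, had 21.7 FPKM of liver genes, close to the 20.7 FPKM of WT 1. The library labelled WT 3 and mutant 3 were lowest in liver genes and low in muscle genes.

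**Figure D4:**
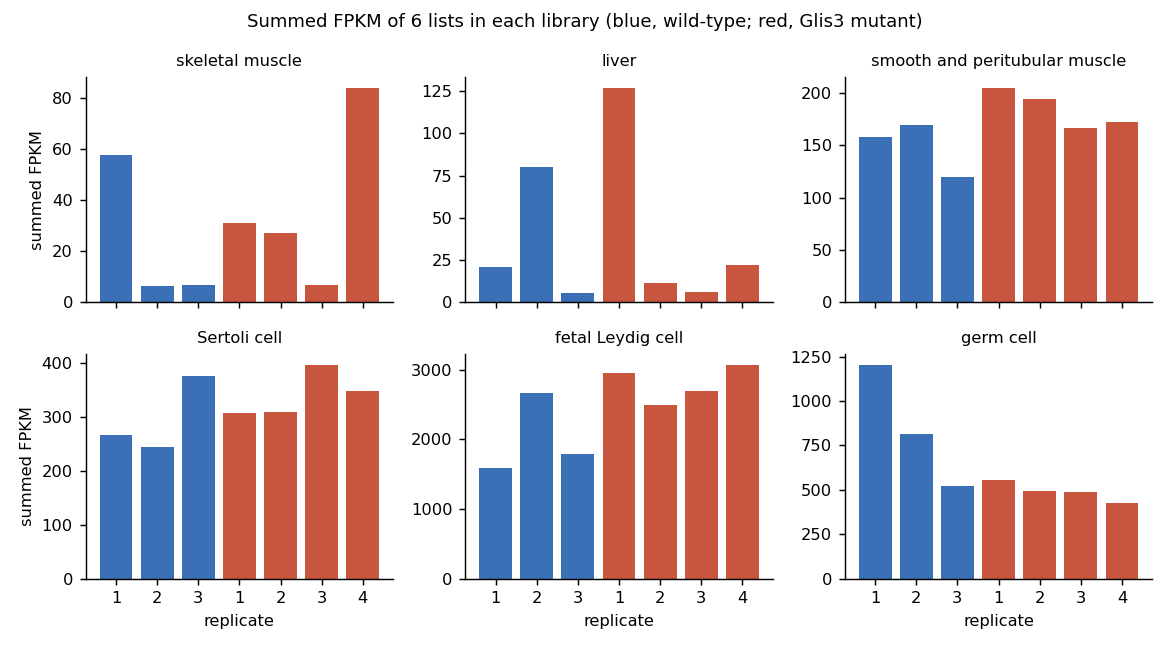
Summed FPKM (vertical axis, linear from 0) of the 10 muscle genes and of the markers of 5 other cell types in the WT libraries (blue) and the *Glis3* mutant libraries (red), by replicate number. Muscle genes reach from 6.14 to 84 and liver genes from 5.55 to 127 with different libraries on top, while Sertoli cell markers stay between 245 and 397.

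*Acta2* and *Tagln*, the most abundant smooth and peritubular muscle genes listed, had 57.3 to 95.9 and 25.3 to 55.7 FPKM. Both were lowest in the library labelled WT 3. The other genes of that list had lower means, down to 0.29 FPKM for *Synpo2*. The most abundant genes of the cardiac list were *Tnni3* (30.4 to 62.4 FPKM) and *Myl7* (16.5 to 41.3 FPKM), with an r to the members of -0.08 and -0.35. Its low genes *Myl2* and *Myl3*, myosin light chains that slow skeletal fibres share with heart, were below the filter and are named here after their values were seen. *Myl2* had 0.582 FPKM in WT 1, 0.147 in WT 2, 0.209 in WT 3, 0.0757 in mutant 1, 0.166 in mutant 2, 0.305 in mutant 3 and 1.29 in mutant 4. *Myl3* had 0.491 FPKM in WT 1, 0.206 in WT 2, 0.193 in WT 3, 0.583 in mutant 1, 0.177 in mutant 2, 0.052 in mutant 3 and 0.959 in mutant 4. Both were highest in mutant 4, although *Myl2* was lowest in mutant 1. *Nppa* was also highest in mutant 4, with 0.503 FPKM against 0 to 0.122 FPKM in the other libraries. *Nppb* was highest in mutant 1 (0.441 FPKM) and *Myh6* in mutant 2 (0.396 FPKM), and *Nkx2-5* was at or near 0 in every library. *Nppa*, *Nppb* and *Myh6* were also below the filter and named after their values were seen. *Krt14* and *Krt10* of epidermis had 3.94 to 5.74 and 2.76 to 4.56 FPKM. The part of other cell types in the muscle values was not tested.

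A further readout came from reads in repeat elements inside the genes, which the authors counted separately from FPKM. Loci with reads lay wholly inside *Myh3*, *Myh8*, *Ttn*, *Mylpf* and *Ckm* and in no other gene, and none lay in the other 5 members. The *Myh3* gene held 10 such loci with 52 reads in WT 1, 4 in WT 2, 6 in WT 3, 55 in mutant 1, 35 in mutant 2, 6 in mutant 3 and 115 in mutant 4. Most of them fell on 1 annotated L2 element (chromosome 11, 67091931 to 67092039) that overlaps coding sequence of *Myh3*, with 49 reads in WT 1, 3 in WT 2, 2 in WT 3, 53 in mutant 1, 28 in mutant 2, 0 in mutant 3 and 103 in mutant 4. Libraries that were high in FPKM were high here as well, and the r between the CPM of the gene (reads scaled to all reads at repeat loci of the library) and its FPKM was 0.98 over the 7 libraries. Reads in exons enter both tables, so that the readouts are not independent. The log2 fold change was 1.62 (SE 0.75, unadjusted p = 0.0499, adjusted p = 0.387 from edgeR's quasi-likelihood test), where 2 of 12944 genes with such reads were called (0.0155%). It was 3.47 without WT 1 and 0.93 without mutant 4, and the adjusted p ranged from 0.258 to 0.787 over its alternatives.

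In *Ttn*, 39 of 41 loci with reads lay outside exons. They had 6 reads in WT 1, 3 in WT 2, 6 in WT 3, 20 in mutant 1, 14 in mutant 2, 5 in mutant 3 and 24 in mutant 4. Mutants 1, 2 and 4 were above the other 4 libraries, and WT 1, high in FPKM of most members, was not. Over all 41 loci the CPM was 1.46 ± 0.366 (SD, n = 3) and 6.02 ± 3.69 (SD, n = 4), with a log2 fold change of 2.05 (SE 0.54) that did not pass the threshold (adjusted p = 0.183 from edgeR, unadjusted p = 0.00219), and the exact permutation test gave p = 0.114. Over all alternatives, its adjusted p ranged from 0.0732 to 0.465. *Myh8* had a mean of 7.14 reads per library, *Mylpf* 5 and *Ckm* 1.86, under the minimum of 10, so that these were not tested.

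**Figure D5:**
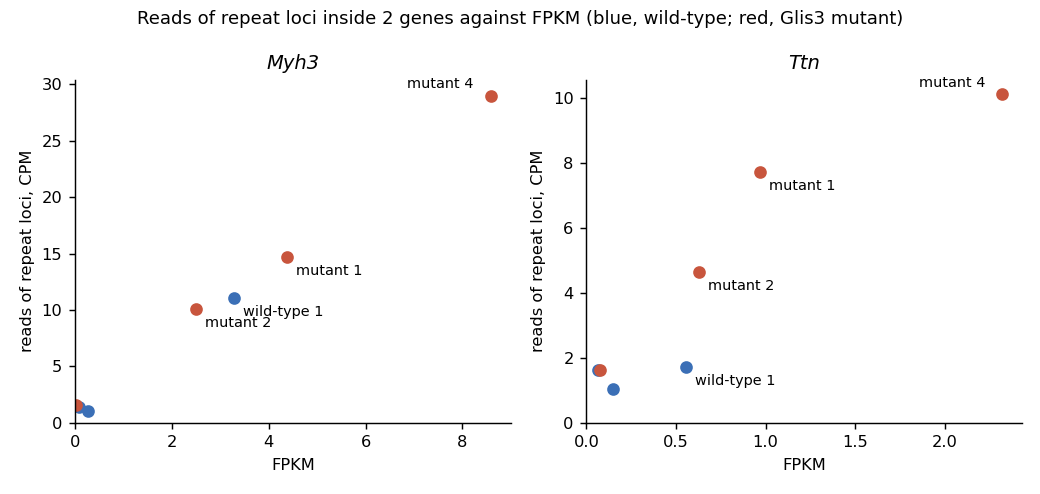
Reads of repeat loci inside *Myh3* (left) and *Ttn* (right), in CPM (vertical axis), against FPKM of the same gene (horizontal axis), 1 point per library, blue for wild-type and red for *Glis3* mutant; unlabelled points at the lower left are WT 2 and WT 3 and mutant 3. *Myh3* rises from 1.04 to 29 CPM with FPKM, and in *Ttn* WT 1 lies at 1.71 CPM while mutant 4 lies at 10.1 CPM.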

How the data were processed

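RNA-Seq of whole testes at E14.5 was used, 3 libraries labelled wild-type and 4 *Glis3* mutant. The authors aligned reads to mm10 with TopHat2 2.0.12 as unstranded (the submitters' processing notes also name Cuffdiff 2.1.1) and, using RefSeq annotations, derived the deposited FPKM values per gene from the Cuffquant and Cuffnorm workflow. The deposited counts of uniquely mapped reads per RepeatMasker element were made by the authors with HTSeq and are not normalized; they summed to 3454317 to 4670830 reads per library. The header of the FPKM table lacks a separator, and columns were assigned by the names it holds.

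Values were tested as log2(FPKM + 0.5) with limma 3.58.1 (eBayes with a trend, two-sided; R 4.3.3) for genes whose mean reached 0.5 FPKM (13988 genes); Benjamini-Hochberg adjusted p-values under 0.05 over all of these were called. Reads of repeat loci wholly inside 1 gene of GENCODE M21 (GRCm38, the same assembly as mm10; bedtools 2.31.1) were summed per gene and tested with edgeR 4.0.16 (TMM, quasi-likelihood, a mean of at least 10 reads). DESeq2 1.42.0 was an alternative. The tests were tried on simulated data. Tables and motif matches were made in Python 3.11.15. Pearson r over 7 libraries is given as a description. P-values measure the spread between embryos.

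Members, lists and alternatives were chosen with earlier results of these data known. Named are the members, *Glis3*, the 3 most abundant genes of each muscle list, the 2 most abundant of other lists where a value was of use, and the 10 genes most similar to the members. Replicate numbers were not taken to pair the libraries. The values of 1 gene of the muscle lists are not reported here.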

Additional observations from a re-analysis of the deposited data

Results flagged for a closer look

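Among the 4 mutant libraries, the values of the 10 members, of their mean and of the 14 other marker lists were checked for a library that stands apart, 25 groups in all, of which chance flags about 1 in 20. For 1 of them, the mean log2(FPKM + 0.5) of the glia markers, the gap between the lowest library, mutant 2, and the next was 0.879 of the whole range. *Erbb3* and *Fabp7*, the most abundant glia genes, had 3.3 and 4.35 FPKM in that library, against 3.45 to 4.98 and 4.62 to 4.84 FPKM in the other mutant libraries. The gap was wider in *Sox10*, named after its values were seen, with 0.35 FPKM in mutant 2 against 0.846 to 1.04 FPKM in the others. No member and not the mean of the members stood apart in this way; the share was largest for *Myh8* (0.814), whose lowest mutant value was in mutant 3.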

How the results depend on the processing

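No alternative brought a member past the threshold, in FPKM or in repeat reads, and each tested member kept its direction wherever it was fitted (*Ttn* and *Ckm* were not fitted with a mean of at least 2 FPKM, and *Myh3* had no value for loci outside exons), except *Ckm*, which had log2 fold changes of -0.10 under the replicate block and -0.10 without mutant 4, the lower end of a range to 0.58 when each library was left out. Mutant 4 was the only library with its replicate number, so that in FPKM the block gave the same fold changes as leaving it out. The reversals of *Ckm* are therefore the same result. The number of all genes past the threshold, 1 in the main analysis, was 4 with no filter, 3 with quantile normalization and 0 under the replicate block, and 1 to 720 when each library was left out, with 720 without the library labelled WT 3, 5 without WT 2 and 2 without WT 1 or mutant 3. The role lists had 0 to 3 genes past it when each library was left out, with 3 without the library labelled WT 3. The genes called on repeat reads, 2 in the main analysis, numbered 48 with DESeq2, 17 with a mean of at least 1 read, 23 for loci outside exons, 0 under the replicate block, and 1 to 189 when each library was left out (189 without the library labelled WT 3, 18 without WT 2, 1 without each other library). The cause was not tested. The deviations of same-numbered libraries from their group means had correlations of 0.198, -0.177 and 0.229 for replicates 1, 2 and 3. Correlations between libraries of different numbers were not computed, so that these values cannot decide on pairing. The numbers were not taken to pair the libraries. The number of fragments behind FPKM is unknown, so no counting error can be given for the low values of *Myod1*.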

Other observations

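Of the 37 genes of the muscle role lists that were in the table but under the filter, 23 were highest in WT 1 or mutant 4. The same share was not counted over all genes under the filter, and WT 1 was the deepest library by the steps between low values. The count is therefore only a description. *Pax7*, a factor of muscle precursor cells, had 0.132 FPKM in WT 1, 0.00906 in WT 2, 0 in WT 3, 0.0459 in mutant 1, 0.0408 in mutant 2, 0.00903 in mutant 3 and 0.121 in mutant 4. *Myot*, a Z-disc protein, had 0.227 FPKM in WT 1, 0.0149 in WT 2, 0 in WT 3, 0.199 in mutant 1, 0.0339 in mutant 2, 0 in mutant 3 and 0.41 in mutant 4. The adult fast myosin gene *Myh4* was at 0.00516 to 0.0297 FPKM in the 7 libraries, and *Myh2* at 0 to 0.126 FPKM. Both were highest in mutant 2, and *Myh2* was at 0 in mutant 4, so that they did not follow the members. These 4 genes were chosen after their values were seen, and none was tested.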
